A study of Sparassis latifolia with 15 samples.

Results

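The transcripts of Sparassis latifolia mycelium after 1 h of light were compared with those of mycelium kept in darkness, over all genes that were counted. S. latifolia is an edible wood-decaying mushroom whose primordia, the first knots of the fruiting body, form only after exposure to light. The comparison used 6 of the 9 RNA-seq libraries, out of 15 libraries of both assays in the series: 3 of light-induced mycelium (L) and 3 of dark mycelium (D). All came from strain SP-C, grown in cultivation bags as for industry, and the study's methods call the 3 libraries of each group biological replicates. No allele or agent other than light separates the groups. The methods describe D as grown in darkness for 28 d and L as D mycelium given 1 h of white light, whereas the labels give 28 d for D and 30 d for L. By the labels, 1 h of light and the difference in age cannot be told apart. Of 11204 genes in the deposited count tables, 11161 were counted in these libraries, and 10627 had enough reads to be tested.

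In fungi, blue light is sensed by white collar 1, a protein that holds a flavin and, with its partner white collar 2, binds the promoters of light-responsive genes, as worked out in Neurospora crassa. Hydrophobins, small secreted proteins that coat aerial hyphae and fruiting bodies, and enzymes of amino acid and lipid metabolism are among the genes commonly followed as mycelium turns to fruiting. The study picked 30 genes by combining both of its assays on cultures of the same groups, and described 17 as higher (U genes) and 13 as lower (D genes) in light and in primordia. These 30 genes and GAPDH are described below together with the genes outside that list, which the files name only by an ID. Since the study chose the list on these libraries, its directions are not independent evidence. The same limit holds wherever listed genes are set beside all genes below.

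The libraries held 23253816 to 26474939 counts in L and 23807204 to 27706995 in D, and 10921 to 10995 genes were detected in each. Levels are normalised read counts (CPM), scaled to a total of 1000000 per library after TMM normalisation. They are not corrected for gene length, so they are compared between libraries and not between genes. In bulk mycelium, fewer cells of a kind and less RNA per cell cannot be told apart.

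The L libraries lay further apart than the D libraries, and 1 of them stood away from the rest. Light replicates 1 and 2 correlated at r = 0.923 over log2 CPM of the genes tested, whereas light replicate 1 correlated at 0.970 with dark replicate 2. The other pairs within L reached 0.976 (replicates 1 and 3) and 0.965 (replicates 2 and 3), and the pairs within D 0.966 to 0.979. These correlations are across genes, which are not independent replicates. The biological coefficient of variation, the relative spread between replicates estimated by edgeR, was 0.334 in L and 0.285 in D. On the first principal component, with 47.0% of the variance, light replicate 2 stood at 66.7, light replicate 3 at 18.3 and light replicate 1 at -16.0, against -37.9, -27.2 and -3.87 for dark replicates 1, 2 and 3. The groups overlapped on this component, with light replicate 1 below dark replicate 3.

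**Figure D1:**
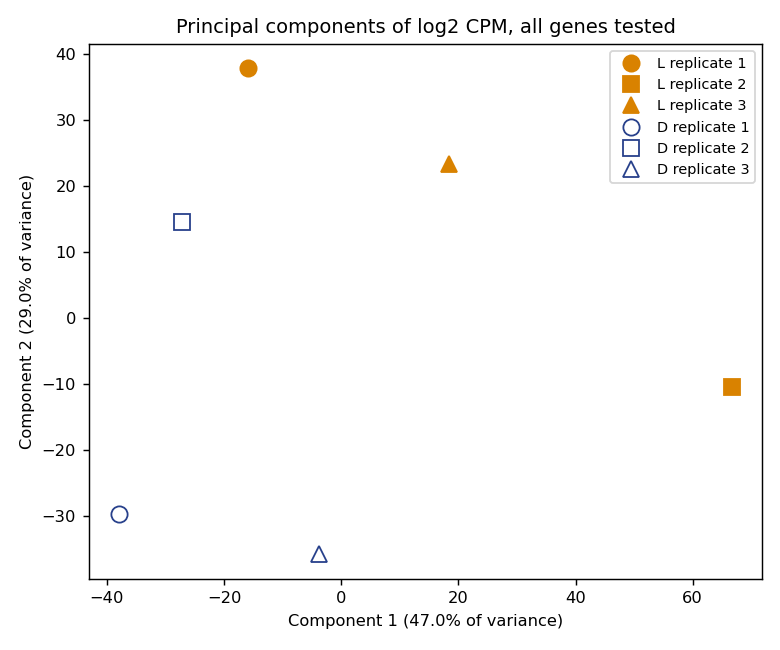
Each point is 1 library, placed by its first (x axis, 47.0% of variance) and second (y axis, 29.0%) principal component of log2 CPM, in filled symbols for L and open symbols for D. Light replicate 2 lies alone at the right, at 66.7 on the first component. Neither axis by itself separates the L from the D libraries, although a slanted line across both axes would part them.

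In edgeR's quasi-likelihood test, no gene had a fold change above 1.2 together with a Benjamini-Hochberg adjusted p no higher than 0.05 (0 of 10627 genes, 0%). At an unadjusted p under 0.05, edgeR gave 683 genes higher in L (6.43% of those tested) and 597 lower (5.62%). These counts were 373 and 349 without light replicate 3, 421 and 411 without dark replicate 1, and 987 and 506 without dark replicate 2. DESeq2, run on the same counts, called 208 genes higher (1.96%) and 215 lower (2.02%), and limma-voom called 0. With DESeq2 at the same thresholds, the study reported several times as many genes in each direction. The cause of that difference was not tested. All 3 L libraries lay above all 3 D libraries for 1018 genes (9.58%) and below them for 1000 (9.41%). When levels were scaled by library totals alone, in place of TMM, these splits became 2163 higher against 376 lower for genes without overlap, and 1381 against 254 at an unadjusted p under 0.05. Under that scaling the median log2 fold change of all genes was 0.23, against 0.02 with TMM.

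DESeq2's calls in both directions were mostly over 2-fold. The 208 higher genes had a median fold of 2.71, and 162 of them exceeded 2-fold and 54 exceeded 4-fold. The 215 lower genes had a median fold of 2.101, with 122 over 2-fold and 44 over 4-fold. Of these calls, 196 and 210 lay outside the 30 genes that the study picked. The L and D libraries did not overlap for 206 of the higher and 214 of the lower genes. By edgeR, 208 of the higher and 213 of the lower genes had an unadjusted p under 0.05, while their adjusted p had a median of 0.201 and 0.205.

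The number of DESeq2 calls changed with the libraries in the fit. Without light replicate 3 there were 88 higher and 97 lower genes, without dark replicate 3 there were 105 and 119, and without dark replicate 1 there were 106 and 119. Without light replicate 2, DESeq2 called 155 higher and 143 lower genes. Leaving out dark replicate 2 raised the number of higher genes to 421, with 229 lower, and leaving out light replicate 1 raised the number of lower genes to 353, with 240 higher. A core of 71 higher genes and 67 lower genes was called whichever of the 6 libraries was left out. These had larger changes, with a median fold of 4.91 for the higher and 3.72 for the lower genes, and 62 and 63 of them lay outside the study's list. A call in every smaller fit is easier for genes with large folds, so the larger medians follow in part from this rule. By edgeR, 12 higher and 3 lower genes passed without light replicate 1, 2 higher genes without light replicate 2, and 0 genes without any other library.

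**Figure D2:**
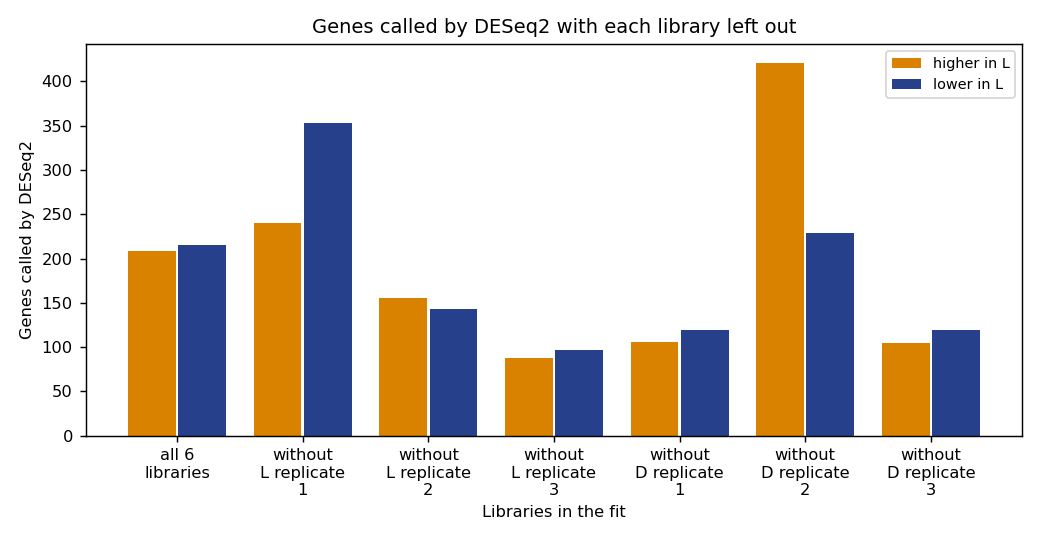
Bars give the number of genes called by DESeq2 (y axis) as higher (left bar) or lower (right bar) in L, with all 6 libraries and with each library left out (x axis). The number of higher genes ranges from 88 without light replicate 3 to 421 without dark replicate 2.

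With TMM scaling, the direction of the difference varied with how strongly a gene was read. Among 2321 genes with a mean of 1 to 10 CPM over the 6 libraries, L lay above D without overlap for 389 genes (16.8%) and below it for 112 (4.83%). Among the 5491 genes of 10 to 100 CPM the numbers were close, at 479 (8.72%) and 512 (9.32%). Among the 2238 genes of 100 to 1000 CPM, 66 were higher (2.95%) and 338 lower (15.1%), a split that was the other way round with library totals in place of TMM (254 higher and 123 lower). Of the 110 genes over 1000 CPM, 3 were higher (2.73%) and 29 lower (26.4%), and of the 467 under 1 CPM, 81 were higher (17.3%) and 9 lower (1.93%). DESeq2's calls showed the same order: 73 higher and 19 lower at 1 to 10 CPM, against 13 higher and 77 lower at 100 to 1000 CPM.

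The median log2 fold change was 0.42 under 1 CPM, 0.26 at 1 to 10 CPM, 0.01 at 10 to 100 CPM, -0.12 at 100 to 1000 CPM and -0.31 over 1000 CPM. With each library left out in turn, it remained between 0.25 and 0.65 in the lowest class and between -0.40 and -0.20 in the highest. With library totals in place of TMM it was 0.61, 0.47, 0.22, 0.10 and -0.08 in the same order, so the class of 100 to 1000 CPM changed sign, and its median lay below the 0.23 of all genes. Under those totals, genes without overlap were 112 higher and 4 lower under 1 CPM, 613 and 42 at 1 to 10 CPM, 1178 and 188 at 10 to 100 CPM, 254 and 123 at 100 to 1000 CPM, and 6 and 19 over 1000 CPM. More genes were thus lower than higher in the top class only.

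**Figure D3:**
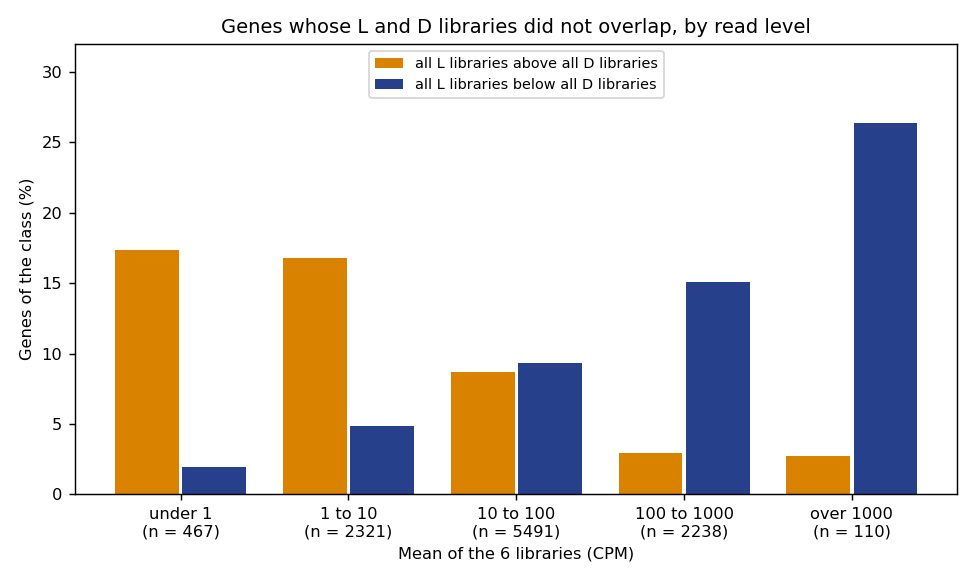
Bars give the share of genes (y axis, %) in each class of mean CPM (x axis) whose 3 L libraries all lay above (left bar) or all below (right bar) the 3 D libraries, in TMM-scaled CPM. The share of higher genes is 16.8% at 1 to 10 CPM and 2.73% over 1000 CPM, and that of lower genes is 4.83% and 26.4%.

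The most abundant transcripts held less of the L libraries than of the D libraries. The 10 most abundant genes of each library took 4.89%, 4.43% and 4.13% of its counts in L, against 6.85%, 6.09% and 6.36% in D. The groups did not overlap, with means of 4.48% ± 0.38 in L and 6.43% ± 0.38 in D (SD, n = 3 each; exact permutation test, two-sided, p = 0.10, the smallest p that 3 against 3 libraries allow). The 100 most abundant genes took 20.1%, 19.2% and 18.6% in L, against 25.5%, 22.6% and 23.3% in D, again without overlap (19.3% ± 0.762 in L and 23.8% ± 1.54 in D, SD, n = 3 each; exact permutation test, two-sided, p = 0.10). These shares do not depend on the scaling between libraries. The 29 genes over 1000 CPM that were lower without overlap together took 4.09%, 3.39% and 3.94% of the counts in L, against 10.8%, 6.54% and 9.79% in D. Dark replicate 2 was the lowest dark library for 18 of these 29 genes, and light replicate 2 the lowest light library for 20. They were chosen here by their direction, so their summed share is a description.

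Genes that were on in one group and off in the other were not seen. No gene reached 5 CPM in all 3 L libraries while staying under 1 CPM in all 3 D libraries, and none did so the other way (0 and 0 genes, and 0 and 0 at 10 CPM). Of 400 genes under 1 CPM in every D library, the highest had at least 4.07 CPM in every L library. Of 244 genes under 1 CPM in every L library, the highest had at least 1.85 CPM in every D library. By fold change, 428 genes were over 2-fold higher and 312 over 2-fold lower in L, of which 308 and 186 did not overlap. Over 4-fold the numbers were 59 higher and 59 lower, and over 8-fold 26 and 12. All 26 genes over 8-fold higher were without overlap and called by DESeq2, and 17 of them lay outside the study's list. Of the 12 genes over 8-fold lower, none of which the study listed, 8 were without overlap and the same number were called by DESeq2.

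**Figure D4:**
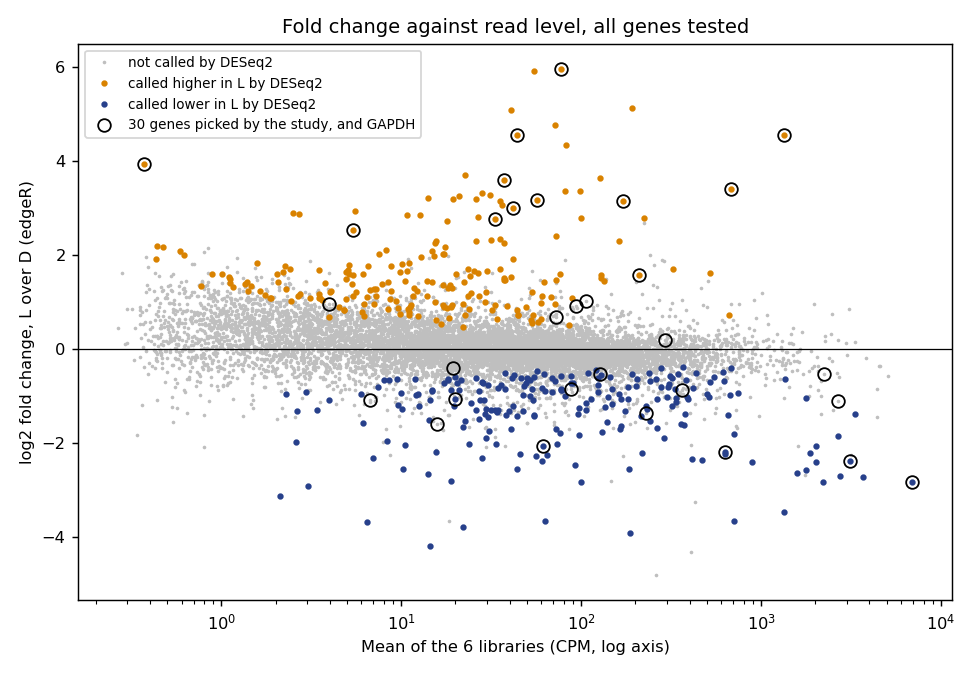
Each point is 1 of the 10627 genes tested, with the mean of the 6 libraries on the x axis (CPM, log axis) and the log2 fold change of L over D on the y axis. Genes called by DESeq2 are coloured by direction, and rings mark the 30 genes picked by the study and GAPDH. Higher calls lie mostly at low and middle read levels (median 15.4 CPM), lower calls further right (median 72.6 CPM).

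Outside the study's list, the 4 IDs given here are those with the lowest edgeR p in each direction among genes of at least 10 CPM. Gglean006347 had 112, 105 and 101 CPM in L, against 41.9, 34.0 and 38.4 CPM in D. The 3 libraries of each group lay close together, and the log2 fold change of 1.48 (SE 0.14) had an adjusted p of 0.0604 by edgeR. Gglean002891 had 44.1, 178 and 101 CPM in L, against 1.47, 2.21 and 1.64 CPM in D, a log2 fold change of 5.91 (SE 0.58, edgeR adjusted p = 0.0604). Its dark level was low in every library, and its light level differed widely between libraries, with replicate 2 highest. Gglean010680 had 36.9, 18.0 and 19.1 CPM in L, against 155, 177 and 193 CPM in D (log2 fold change -2.83, SE 0.31, edgeR adjusted p = 0.0870). Gglean011418 had 39.3, 10.1 and 21.3 CPM in L, against 322, 340.0 and 391 CPM in D, and its log2 fold change of -3.90 (SE 0.50, edgeR adjusted p = 0.117) became -4.48 without light replicate 1. For all 4 genes the groups were far apart, and DESeq2 called each of them with all 6 libraries and whichever library was left out. By edgeR, Gglean002891 passed the threshold in a fit of all 9 RNA-seq libraries, without light replicate 1 and without light replicate 2. Gglean006347 passed with library totals and with the stricter filter of at least 10 CPM in 3 libraries. Gglean010680 and Gglean011418 also passed without light replicate 1.

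The 6 listed genes grouped here as light sensing and regulation form a loose group, in which only white collar 1 is named as a light sensor. Of these, 5 had a positive log2 fold change and 1 a negative one, beside 5532 of all 10627 genes with a positive one. DESeq2 called 3 higher, beside 1.96% of all genes. White collar 1 (Gglean010591), the photoreceptor, had 201, 399 and 342 CPM in L, against 126, 90.3 and 96.5 CPM in D. Every L library lay above every D library, and its mean was 314 ± 102 CPM in L and 104 ± 19.1 CPM in D (SD, n = 3 each; log2 fold change 1.59, SE 0.29, edgeR adjusted p = 0.162). DESeq2 called it in all 6 fits with a library left out. Gluconate transport inducer 1 (Gglean007619), named for a fission yeast regulator of gluconate uptake, had 44.8, 99.1 and 62.1 CPM in L, against 3.53, 7.63 and 5.79 CPM in D. Its groups lay 12.1-fold apart, and the gene passed edgeR without light replicate 1 only. A methyltransferase-like protein (Gglean008871) had 332, 2388 and 1003 CPM in L, against 102, 91.9 and 159 CPM in D. Light replicate 2 stood far above light replicate 1 for it, and its log2 fold change of 3.40 (SE 0.72) became 2.50 without light replicate 2. The pre-mRNA-splicing factor CWC22 (Gglean003085), a spliceosome protein, had 3.85 to 6.25 CPM in L and 2.11 to 3.16 CPM in D, without overlap. Meiosis-specific protein hop1 (Gglean008033), which in budding yeast sits on the axes of meiotic chromosomes, had 6.92, 3.04 and 2.85 CPM in L, against 10.8, 6.93 and 9.49 CPM in D. Its highest L library nearly reached its lowest D library, and DESeq2 did not call it. An SH3 domain protein (Gglean005067) had overlapping groups, with 199.99 to 377 CPM in L and 239 to 310.3 CPM in D.

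All 3 listed genes of the cell wall and protein turnover lay higher in L without overlap, beside 9.58% of all genes, and DESeq2 called 2 of them, beside 1.96%. All 3 are U genes, which the study picked as higher in part on these libraries, so their shared direction is no result about the group. The hydrophobin, listed as fruiting body protein SC4 precursor (Gglean005727), had 367, 5091 and 2287 CPM in L, against 62.9, 35.0 and 229.9 CPM in D. Its level varied widely within L, and light replicate 1 lay nearer to dark replicate 3 than to the other L libraries. In light replicate 2 this gene alone held 0.554% of all counts, against 0.0389% in light replicate 1 and 0.00343% in dark replicate 2. Its log2 fold change of 4.56 (SE 1.16, edgeR adjusted p = 0.235) became 3.60 without light replicate 2, where DESeq2 no longer called it, and 5.72 without dark replicate 3. Cysteine proteinase 1 (Gglean010678), a protease, had 3.17, 14.2 and 10.4 CPM in L, against 0.930, 1.77 and 2.05 CPM in D. It was called by DESeq2 with any library left out. A protein with a LON peptidase N-terminal domain and a RING finger, a domain of many ubiquitin ligases (Gglean008695), had 99.0, 209 and 118 CPM in L, against 64.1, 68.7 and 76.8 CPM in D, and DESeq2 did not call it.

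Of the 3 listed transporters, 1 lay higher and 1 lower without overlap (9.58% and 9.41% of all genes). The iron-sulfur clusters transporter ATM1 (Gglean002700), which in yeast exports an iron-sulfur precursor from mitochondria, had 219, 306 and 394 CPM in L, against 12.7, 84.0 and 6.12 CPM in D. Dark replicate 2 stood far above the other dark libraries. The log2 fold change was 3.16 (SE 0.96, edgeR adjusted p = 0.292) with all libraries and 5.05 without dark replicate 2, and DESeq2 called the gene in only 2 of the 6 fits with a library left out. An MFS general substrate transporter (Gglean000619) had 218, 62.3 and 107 CPM in L, against 394, 252 and 344 CPM in D, a fold of 2.55 that DESeq2 did not call. Without light replicate 1 the fold was 3.90 and DESeq2 called it. An uncharacterized transporter (Gglean005508) had 257, 10.0 and 45.6 CPM in L, against 256, 103 and 88.2 CPM in D. Its groups overlapped, and its log2 fold change of -0.52 (SE 1.04) turned to 0.02 without light replicate 2 and to 0.13 without dark replicate 1.

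**Figure D5:**
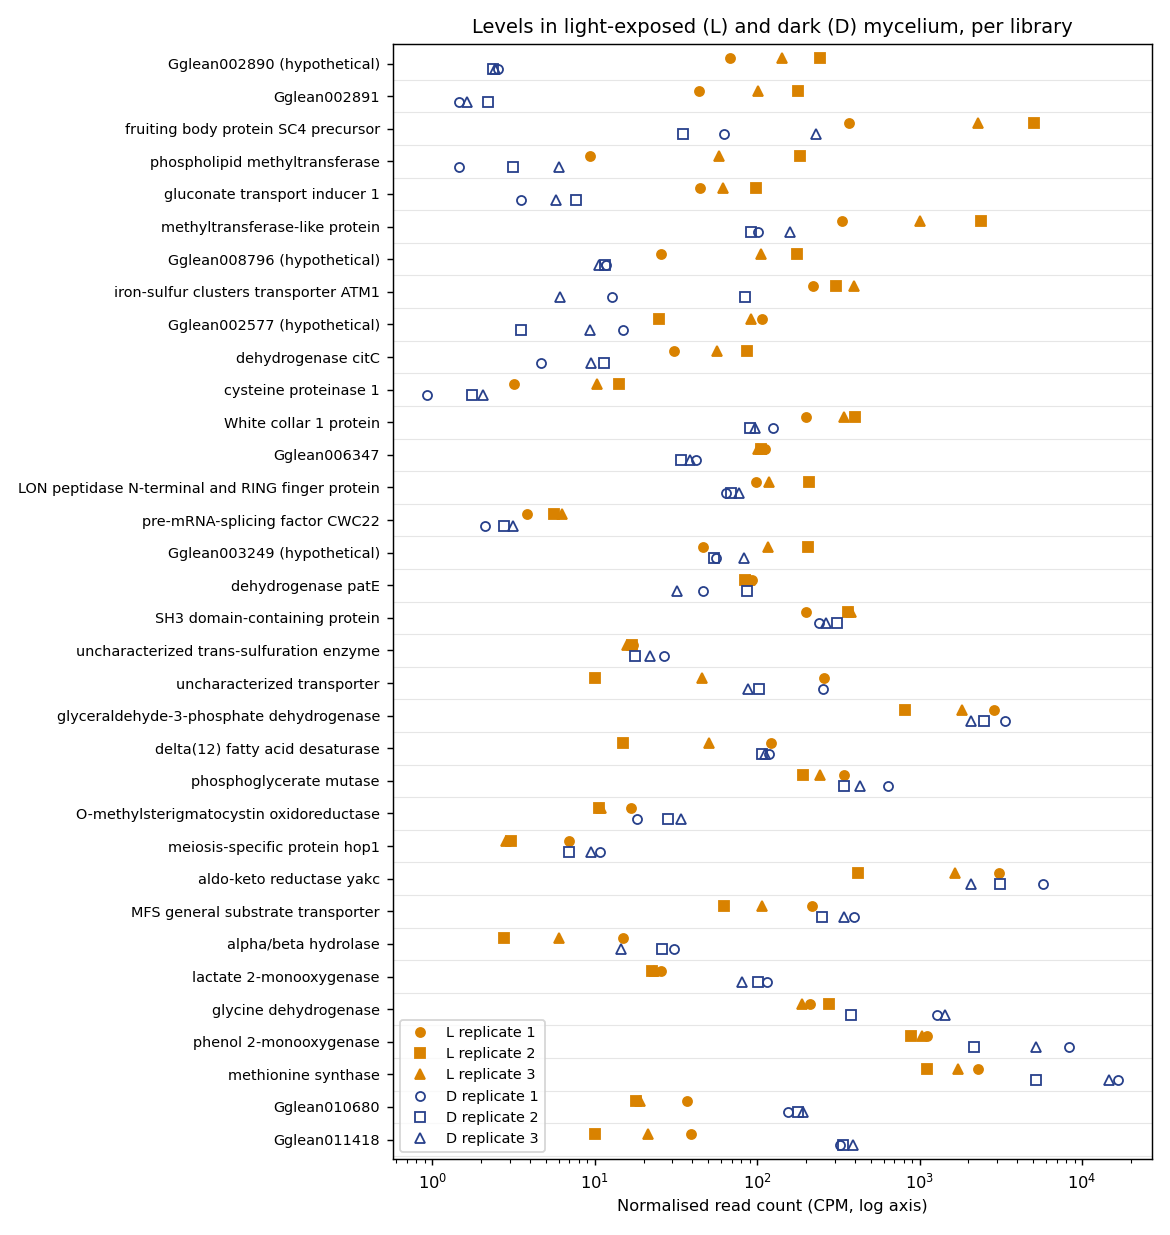
Each row is 1 gene and each point its level in 1 library (x axis, CPM, log axis), in filled symbols for L and open symbols for D. The rows are sorted by log2 fold change and hold 30 of the 31 described genes and the 4 further IDs. Hypothetical protein Gglean002720, with 0 counts in dark replicate 1, is not drawn. Squares (replicate 2) are often the highest filled symbol in the upper rows and the lowest in the lower rows.

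Among the 6 listed oxidoreductases, DESeq2 called 1 higher and 3 lower, beside 1.96% and 2.02% of all genes. Phenol 2-monooxygenase (Gglean001940), which hydroxylates phenol to catechol, had 1117, 891 and 1036 CPM in L, against 8329, 2176 and 5174 CPM in D. The L libraries lay close together and the D libraries lay far apart, with dark replicate 2 lowest (log2 fold change -2.36, SE 0.52, edgeR adjusted p = 0.195). Its share of all counts was 0.0970% to 0.118% in L and 0.213% to 0.714% in D. Lactate 2-monooxygenase (Gglean009487), which turns lactate into acetate, had 25.5, 22.6 and 23.1 CPM in L, against 114, 101 and 80.2 CPM in D. Both groups were tight, and with Gglean002890 it had the lowest adjusted p of all genes (0.0546 by edgeR, log2 fold change -2.05, SE 0.18). It passed the threshold with library totals, without a filter on low counts, with the stricter filter, with the newer quasi-likelihood method of edgeR, and without light replicate 1. O-methylsterigmatocystin oxidoreductase (Gglean011299), named for a cytochrome P450 of aflatoxin synthesis in Aspergillus, had 16.8, 10.6 and 11.005 CPM in L, against 18.1, 28.3 and 33.8 CPM in D. DESeq2 called it with all libraries and in 2 of the 6 fits with a library left out. Dehydrogenase citC (Gglean012354), named for an enzyme of the citrinin pathway in other fungi, had 30.7, 86.9 and 56.7 CPM in L, against 4.65, 11.4 and 9.49 CPM in D, and was called higher by DESeq2 whichever library was left out. The groups overlapped for the other 2 of these genes. Dehydrogenase patE (Gglean000572), named for an enzyme of patulin synthesis, had 93.6, 84.8 and 90.1 CPM in L, against 46.4, 87.2 and 31.95 CPM in D, and DESeq2 called it only without dark replicate 2. Aldo-keto reductase yakc (Gglean009036) had 3063, 419 and 1653 CPM in L, against 5732, 3126 and 2077 CPM in D, with light replicate 2 lowest.

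The 3 listed enzymes of amino acid and one-carbon metabolism all lay lower in L without overlap, beside 9.41% of all genes, and DESeq2 called 2 of them, beside 2.02%. All 3 are D genes, which the study picked as lower in part on these libraries, so their shared direction is no result about the group. The cobalamin-independent methionine synthase (Gglean010344), which transfers a methyl group from methyltetrahydropteroyltriglutamate to homocysteine, took the most reads of all genes over the 6 libraries. It had 2299, 1110.3 and 1733 CPM in L, against 16628, 5196 and 14643 CPM in D. In dark replicates 1 and 3 this gene alone took 1.43% and 1.39% of all counts and in dark replicate 2 it took 0.509%, each above the 0.121% to 0.244% of the L libraries. The log2 fold change was -2.83 (SE 0.58, edgeR adjusted p = 0.173), and DESeq2 called it in all 6 fits with a library left out. A putative glycine dehydrogenase (Gglean001542), a subunit of the glycine cleavage system that feeds one-carbon units to folate, had 211, 278 and 189.8 CPM in L, against 1273, 378 and 1435 CPM in D. Dark replicate 2 was again the low dark library, and the log2 fold change of -2.18 (SE 0.51) became -2.56 without it. An uncharacterized trans-sulfuration enzyme (Gglean011958), of a family that links cysteine and homocysteine, had 17.3, 17.05 and 15.8 CPM in L, against 26.6, 17.7 and 22.0 CPM in D. The libraries did not overlap, but the fold was 1.32 and the unadjusted edgeR p was 0.082 (edgeR adjusted p = 0.481).

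Of the 3 listed lipid enzymes, 1 lay higher in L without overlap, beside 9.58% of all genes. Phospholipid methyltransferase (Gglean003319), whose family methylates phosphatidylethanolamine on the way to phosphatidylcholine, had 9.41, 184 and 58.5 CPM in L, against 1.47, 3.13 and 5.996 CPM in D. Its L libraries lay far apart with replicate 2 highest, and its log2 fold change of 4.56 (SE 1.11, edgeR adjusted p = 0.218) became 3.25 without that library and 5.17 without dark replicate 3, with a DESeq2 call in both. A delta(12) fatty acid desaturase (Gglean000957), which forms linoleic from oleic acid, had 122, 14.9 and 50.9 CPM in L, against 118, 108 and 112 CPM in D. The D libraries were nearly equal, while light replicate 1 lay above all of them and light replicates 2 and 3 below. An alpha/beta hydrolase (Gglean006573) had 15.01, 2.76 and 6.02 CPM in L, against 30.9, 26.1 and 14.5 CPM in D, with light replicate 1 just above dark replicate 3.

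In glycolysis, the cofactor-independent phosphoglycerate mutase (Gglean003676) had 342.2, 190.3 and 244 CPM in L, against 638, 342.9 and 431 CPM in D. The highest L library nearly reached the lowest D library, and DESeq2 did not call the gene (log2 fold change -0.86, SE 0.32, edgeR adjusted p = 0.364). GAPDH (Gglean007906), the glyceraldehyde-3-phosphate dehydrogenase that the study used as the reference in qRT-PCR, had 2856, 819 and 1814 CPM in L, against 3348, 2499 and 2061 CPM in D. Its level was uneven within L, with light replicate 2 lowest, and the groups overlapped (log2 fold change -0.53, SE 0.48, edgeR adjusted p = 0.711).

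The study listed 5 genes as hypothetical proteins, all among the U genes, and DESeq2 called 4 of them higher, beside 1.96% of all genes. Gglean002890 had 68.2, 244 and 143 CPM in L, against 2.55, 2.36 and 2.42 CPM in D, and its log2 fold change of 5.95 (SE 0.52) was the highest of the listed genes. It did not pass edgeR in the main fit. It passed with library totals, without a filter on low counts, with the stricter filter and with the newer quasi-likelihood method. It also passed with all 9 RNA-seq libraries in 1 fit, without light replicate 1 and without light replicate 2. Its ID is next to that of Gglean002891, and both had their highest level in light replicate 2 and their lowest light level in replicate 1. That order of the L libraries was found in 33.6% of all genes tested. Among the 196 genes outside the list that DESeq2 called higher, it was found in 45.4%. The sources used here give neither the distance between Gglean002890 and Gglean002891 nor the strand setting of the count. Whether these neighbouring IDs share reads was not tested. Gglean008796 had 25.5, 176 and 106 CPM in L, against 11.8, 11.5 and 10.6 CPM in D, and its log2 fold change of 3.18 became 2.54 without light replicate 2. Gglean002577 had 107, 24.9 and 91.2 CPM in L, against 14.98, 3.50 and 9.36 CPM in D, and was 1 of 2 U genes with light replicate 2 lowest among the L libraries. Gglean003249 had overlapping groups, with 46.4, 206 and 116 CPM in L and 55.8, 54.2 and 83.2 CPM in D. Gglean002720 was read 16, 27 and 15 times in the L libraries, against 0, 1 and 2 times in the D libraries. The ratio of the summed counts, corrected for library size, was 17.04 (exact 95% interval 5.55 to 85.0, for counting error only). The fold fitted by edgeR was 15.4 with all libraries, 27.7 without dark replicate 3 and 11.3 without dark replicate 1, and DESeq2 called the gene in 5 of the 6 fits with a library left out.

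Over the list, 14 of the 17 U genes lay higher and 9 of the 13 D genes lower without overlap, against 9.58% and 9.41% of all genes tested. The log2 fold change had a median of 3.01 over the U genes, of -1.09 over the D genes and of 0.02 over all genes. By DESeq2, 12 U genes were called higher and 5 D genes lower, beside 1.96% and 2.02% of all genes, and 9 and 4 of them were called whichever library was left out. The study chose the U and D genes by direction on the same libraries, so these shares, medians and calls are descriptions only. A further 9 listed genes, which DESeq2 did not call with all 6 libraries, were called only in the fit without light replicate 1. In the study's qRT-PCR, some listed genes did not follow the pattern of its sequencing. These were dehydrogenase patE, the SH3 domain protein, the methyltransferase-like protein, cysteine proteinase 1, phosphoglycerate mutase, hop1, the aldo-keto reductase and the trans-sulfuration enzyme. The study's text does not say whether this was in light or in primordia. The order of the L libraries recurred within the list. For 12 of the 17 U genes (70.6%) light replicate 2 was highest, replicate 3 next and replicate 1 lowest, an order found in 33.6% of all genes tested and in 45.4% of the 196 other genes called higher by DESeq2. For 10 of the 13 D genes (76.9%) the order was reversed, with replicate 1 highest and replicate 2 lowest, against 31.6% of all genes and 43.3% of the 210 other genes called lower. The part of what sets light replicate 2 apart in the differences between L and D was not tested.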

How the data were processed

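RNA-seq libraries of strain SP-C, 3 of L and 3 of D, were grouped by their labels. The deposited counts per gene were made by the authors with HTSeq 0.6.1, from reads cleaned by cutadapt and mapped by STAR on the genome of SP-C. The sources used here do not state the strand setting. The table also holds counts divided by size factors and the authors' own fold changes and p-values for L against D, and none of these columns were used. Genes that passed filterByExpr on the raw counts were tested with edgeR 4.0.16 (TMM, estimateDisp, glmQLFit and glmQLFTest with presets, R 4.3.3), with Benjamini-Hochberg adjustment over the 10627 genes tested. A call needed an adjusted p no higher than 0.05 and a fold above 1.2, as in the study. The standard error (SE) was derived from the unshrunk log2 fold change and the F statistic (its size over root F), and adds nothing to the p-value. DESeq2 1.42.0 and limma-voom (limma 3.58.1) were run beside it, and the procedure was tested on simulated data. Log2 CPM used a prior count of 2. Python 3.11.15 (scipy 1.17.1, numpy 2.4.6, pandas 2.3.3, matplotlib 3.10.9) served for tables and plots.

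The named genes are the 30 genes that the study picked, GAPDH and 2 IDs per direction, which are the genes outside the list with the lowest edgeR p among those with a mean of at least 10 CPM. These members and lists, grouped by the role in their description, were chosen with earlier results of these data known. The reference table available, of another strain, held 0 of the 11204 IDs, so further genes are described by counts. No sequences are shown. Alternatives were DESeq2's size factors or library totals, no filter or a filter of at least 10 CPM in 3 libraries, DESeq2, limma-voom, other quasi-likelihood settings, each library left out, the replicate number as a block, and all 9 RNA-seq libraries in 1 fit. The other quasi-likelihood method of edgeR (legacy=FALSE) and the counts by DESeq2 and of genes without overlap with a library left out were added after the data were seen. The exact permutation tests on the shares of counts were not part of the plan. Primordia and the ATAC-seq peaks were not analysed here beyond that fit.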

Additional observations from a re-analysis of the deposited data

How the results depend on the processing

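The number of genes past the threshold was 0 by edgeR, and also 0 with DESeq2's size factors, with limma-voom, with robust estimation and with the replicate block. It was 3 with library totals, 2 without a filter, 3 with the filter of at least 10 CPM in 3 libraries, 2 with legacy=FALSE, 2 with all 9 libraries and 423 by DESeq2, and ran from 0 to 15 with a library left out, highest without light replicate 1. With a library left out, DESeq2 called 88 to 421 genes higher (without light replicate 3 and without dark replicate 2) and 97 to 353 lower (without light replicate 3 and without light replicate 1). Genes without overlap were 2163 higher and 376 lower with library totals. With the stricter filter, which tests fewer genes, they were 569 higher and 878 lower. With a library left out, where fewer libraries have to be apart, they were 1218 to 1921 higher and 1167 to 1935 lower. Of 555 values of the 35 named genes under the alternatives, 511 kept their direction and side of the threshold, and 42 (21 genes) came to pass it. With the DESeq2 test set aside, 21 values of 8 genes came to pass it. Another 2 values reversed, both of Gglean005508. Its log2 fold change ran from -2.42 to 0.13 with a library left out and was 0.02 without light replicate 2. Same-numbered L and D libraries deviated from their group means at r = 0.27, -0.33 and -0.20 across genes. Pairs of unlike number ran from -0.54 to 0.58. Whether same-numbered libraries share a culture or handling was not tested. With the replicate block, an unadjusted p under 0.05 was found for 501 genes higher and 524 lower in L, and the lowest adjusted p of edgeR was 0.0882. The cause of these changes was not tested beyond what the settings themselves fix. With 3 libraries per group, no two-sided exact permutation test can go below 0.10, and genes under 1 CPM rest on few reads.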

Other observations

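Some genes called by DESeq2 had consecutive IDs. Of the 189 genes that DESeq2 called higher in L and whose next ID was also tested, 23 (12.2%) had a next ID that was called higher too. Of all 10627 genes tested, 1.96% were called higher. Of 196 genes called lower, 16 (8.16%) had a next ID called lower, beside 2.02% of all genes tested. These are counts with no test. Whether consecutive IDs lie side by side in the genome, overlap or share reads was not tested.

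Light replicate 2 and dark replicate 3 deviated from the means of their groups in a like way over the genes tested (r = 0.58 across genes), whereas light replicate 1 and dark replicate 3 deviated in opposite ways (r = -0.54). Deviations from a group mean cancel out within the group, so the negative value is in part tied to the positive one. Light replicate 2 was also closer to dark replicate 3 (r = 0.9502 of log2 CPM) than to dark replicates 1 (0.923) and 2 (0.919). The labels used here give no batch that these libraries share.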
